A study of Homo sapiens with 10 samples.

Results

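The ATF4 amino acid response genes are 34 genes, among them the transcription factor ATF4, that take part in the response of cells to a shortage of amino acids. They were taken by name. A probe set whose platform annotation names exactly 1 gene was found for 33 of the 34, out of 19775 genes with such a probe set, and each gene was read from its probe set with the highest mean log2 signal over all arrays. No such probe set was found for GPT2, the mitochondrial alanine aminotransferase, which is not analysed here. Levels were measured in LoVo, an established human colon cancer cell line, on 10 Affymetrix HG-U133 Plus 2.0 arrays. The control cells (C, 3 arrays) grew with 10% serum, the serum-starved cells (SS, 3 arrays) had no serum for 96 h, and the ADMA cells (ADMA, 4 arrays) had no serum and 10 μM ADMA for the same 96 h. ADMA, asymmetric dimethylarginine, is an endogenous arginine derivative that inhibits nitric oxide synthase. All groups were 1 cell line, so the values describe this line alone.

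When amino acids run short, uncharged tRNA activates the kinase GCN2, and when unfolded proteins build up in the endoplasmic reticulum the related kinase PERK is activated. Both phosphorylate the translation initiation factor eIF2, which slows protein synthesis in general while the ATF4 messenger RNA is translated more. ATF4 then pairs with proteins of the C/EBP family on the C/EBP-ATF response element and turns on genes for amino acid synthesis and uptake, for tRNA charging, and for stress effectors that restrain growth or promote cell death. Because much of the control of ATF4 lies in its translation, an array reads the messenger RNA of ATF4 and of its targets and not the amount of ATF4 protein.

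Signals were used on the log2 scale as deposited, without further scaling. A gene was tested when its mean log2 signal reached 6.25, the median over all probe sets that are not controls, and 32 of the 33 members with a probe set were tested, together with 12344 genes in all. SLC6A9, the glycine transporter GlyT1, was under that limit with a mean of 6.15. Its log2 signals were 4.61, 6.58 and 6.43 on the C arrays, 6.42, 6.22 and 6.42 on the SS arrays and 6.28, 6.08, 6.69 and 5.73 on the ADMA arrays, so the groups overlapped. The lowest group mean of a tested member was 6.97, for CBS in C, and thus no member was tested only through the group where it was high. All 32 tested members were above the array's background level, taken from control probe sets for bacterial genes, on all 10 arrays. A gene is called here when limma's adjusted p was under 0.01 and the difference at least 1.2-fold. All 12 markers of colon epithelial cells reached the limit for testing, against 3 of 8 for fibroblasts, 1 of 6 for endothelial cells, 2 of 5 for leukocytes and 1 of 4 for red blood cells and serum proteins.

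The array medians were 60.65 to 73.11 in C, 87.49 to 90.68 in SS and 91.87 to 98.1 in ADMA, while the trimmed mean was the same, 500.06 to 500.07, on every array. Centring the arrays on these medians lowered every SS minus C difference by 0.39, every ADMA minus SS difference by 0.12 and every ADMA minus C difference by 0.51 on the log2 scale. Members are therefore also described by their distance from the median of all genes tested, which does not depend on this choice. The signal of the 28S ribosomal RNA control (5′ probe set) was 501.4 to 633.6 in C, 1344.7 to 2014.4 in SS and 795.4 to 1052.2 in ADMA. The ratio of the 3′ to the 5′ probe set of ACTB, a sign of RNA integrity, was 1.009 to 1.085 in C, 1.129 to 1.227 in SS and 1.019 to 1.047 in ADMA. The same ratio of GAPDH overlapped between the groups, at 0.857 to 0.931 in C, 0.861 to 0.974 in SS and 0.855 to 0.896 in ADMA. The 28S signal and the ACTB ratio were highest in SS, where most members were highest too, and their part in the results was not tested.

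The core of the C/EBP-ATF response element is spelled TGATGNAA, and it was searched on both strands of the RefSeq promoter windows (GRCh38.p14, 250 bases before to 50 after each transcription start). Windows were found for 27 of the 34 members, 46 windows in all. The core was in 8 of these 46 windows (17.4%), each of a different gene, against 1270 of 35116 windows of all genes (3.62%). The members with a match were ATF3, CEBPG, JDP2, CHAC1, ASNS, SLC3A2, SLC1A4 and SLC1A5. The longer form TGATGCAAT, which contains the core, was in none of the 46 windows and in 0.236% of all windows. The endoplasmic reticulum stress element, CCAAT and CCACG with 9 bases between them, was in none of the 46 and in 0.0769% of all. A match describes the letters of the window, and no binding was measured.

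For 4 of the members with a match that are described below, the 250 bases before the start are shown 5′ to 3′ on the strand of the gene. The core is in capitals, and positions are counted back from the transcription start, which directly follows the last base shown. ASNS, CEBPG and ATF3 each have another window, at another start, that holds no match.
ASNS, chr7:97872409-97872658, minus strand: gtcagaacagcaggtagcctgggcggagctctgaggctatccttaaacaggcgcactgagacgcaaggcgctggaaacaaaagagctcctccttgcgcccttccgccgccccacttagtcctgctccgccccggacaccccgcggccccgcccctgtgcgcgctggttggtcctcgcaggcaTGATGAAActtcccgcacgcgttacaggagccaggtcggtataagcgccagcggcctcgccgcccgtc
CEBPG, chr19:33373863-33374112, plus strand: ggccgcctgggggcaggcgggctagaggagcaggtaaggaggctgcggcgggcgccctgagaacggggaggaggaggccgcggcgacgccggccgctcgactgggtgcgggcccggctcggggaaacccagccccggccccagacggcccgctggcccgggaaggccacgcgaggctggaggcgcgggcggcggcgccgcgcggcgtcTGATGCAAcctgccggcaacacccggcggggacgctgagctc
ATF3, chr1:212565157-212565406, plus strand: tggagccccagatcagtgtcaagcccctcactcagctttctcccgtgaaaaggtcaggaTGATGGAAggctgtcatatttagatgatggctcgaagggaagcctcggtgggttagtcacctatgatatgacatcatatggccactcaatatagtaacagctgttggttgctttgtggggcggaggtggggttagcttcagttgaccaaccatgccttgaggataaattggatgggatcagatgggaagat
CHAC1, chr15:40953221-40953470, plus strand: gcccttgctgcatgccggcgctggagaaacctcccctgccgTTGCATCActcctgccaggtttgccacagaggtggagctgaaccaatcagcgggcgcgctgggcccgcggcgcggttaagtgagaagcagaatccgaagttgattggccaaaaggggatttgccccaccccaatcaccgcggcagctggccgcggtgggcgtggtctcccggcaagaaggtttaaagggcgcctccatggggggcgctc
In ASNS the core lay at -68 to -61 and in CEBPG at -42 to -35. In ATF3 it lay farther out, at -191 to -184, and in CHAC1 at -209 to -202 on the opposite strand, so that the gene's strand reads its reverse complement. CEBPG and CHAC1 carry the same 8 letters, TGATGCAA, on opposite strands.

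**Figure D1:**
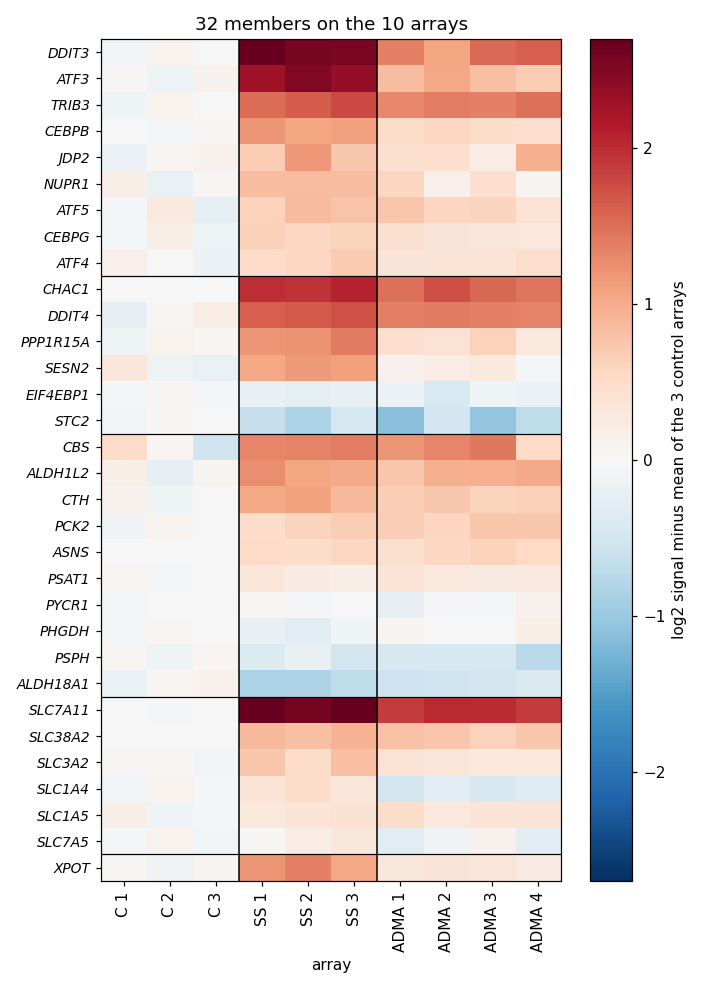
Log2 signal of the 32 tested members (rows, grouped by role) on the 10 arrays (columns), each minus the gene's mean over the 3 C arrays; red is higher and blue lower. DDIT3, ATF3, CHAC1 and SLC7A11 are darkest on the SS arrays, and STC2, PSPH and ALDH18A1 are below control on the SS and ADMA arrays.

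The comparison of SS with C asks what 96 h without serum did to these genes. Of the 32 members tested, 24 rose, 3 fell and 5 were not called. Thus 84.4% were called, against 57.6% of all 12344 genes tested, and 24 of 32 were higher where 30.3% of all genes were higher and 27.3% lower. The largest rises were those of SLC7A11 (6.31-fold), DDIT3 (6.05-fold), ATF3 (5.24-fold) and CHAC1 (4.04-fold), a cystine transporter, 2 stress transcription factors and a glutathione-degrading enzyme. STC2, PSPH and ALDH18A1 fell. The median log2 difference of the members was 0.79, against 0.07 over all genes tested. With arrays centred on their medians, 14 members rose and 6 fell, 70% of the called members being higher instead of 88.9%, and the members' median stayed 0.72 above that of all genes. Of all called genes, 52.6% were higher without centring and 28% with centring. The rises of ATF4, ATF5, CEBPG, JDP2, NUPR1, ASNS, PCK2, SLC3A2 and SLC1A4 were not called there, and SLC1A5 changed sign. Of the 24 that rose, 13 have another probe set over the limit, and in 2 of them, ATF5 and SLC1A4, at least 1 such probe set was not called higher. The same held for 2 of the 3 that fell, PSPH and STC2. Values of these other probe sets come from a limma fit over all probe sets above the limit.

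The comparison of ADMA with SS asks what ADMA did in cells without serum. Of the 32 members, 13 fell, 1 rose and 18 were not called. The share called was 43.8%, against 29.5% of all genes tested, and 13 of 32 fell where 13.8% of all genes fell and 15.7% rose. ATF3 (2.93-fold), DDIT3 (2.31-fold), SESN2 (1.95-fold) and XPOT (1.85-fold) had the largest falls. ALDH18A1, the enzyme that starts proline synthesis from glutamate, was the gene that rose. Of the 13 that fell, 8 have another probe set over the limit, and in 7 of these at least 1 such probe set was not called lower: ATF3, CTH, SESN2, SLC1A4, SLC7A11, TRIB3 and XPOT. Second probe sets of SESN2 and XPOT gave -0.44 and -0.23 in place of -0.97 and -0.89. The median log2 difference was -0.26, against 0.03 over all genes. It was also negative with quantile normalization (-0.31) and with centred arrays (-0.38). Any 2 of the 3 comparisons share the arrays of a group, so that 1 high array of that group moves the differences of both.

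The comparison of ADMA with C asks where the ADMA cells, without serum, stood against cells with serum. Of the 32 members, 21 were higher, 4 were lower and 7 were not called. The share called was 78.1%, against 49.8% of all genes tested, and 21 of 32 were higher where 26.6% of all genes were higher and 23.2% lower. The median log2 difference was 0.41, against 0.07 over all genes, but it was -0.09 with centred arrays, where 6 members were higher and 8 lower (42.9% of the called members higher instead of 84%). Of all called genes, 53.5% were higher without centring and 16.5% with it, where the median of all genes was -0.44. Measured from the median of all genes, the members' median was 0.34 higher under both choices. SLC7A11 (3.87-fold), CHAC1 (2.94-fold), DDIT3 (2.61-fold), TRIB3 (2.6-fold) and DDIT4 (2.57-fold) were the highest above control. Of the 21 that were higher, 11 have another probe set over the limit, and in 4 of them, ATF5, CEBPG, PPP1R15A and XPOT, it was not called, as in 3 of the 4 that were lower, PSPH, SLC1A4 and STC2.

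**Figure D2:**
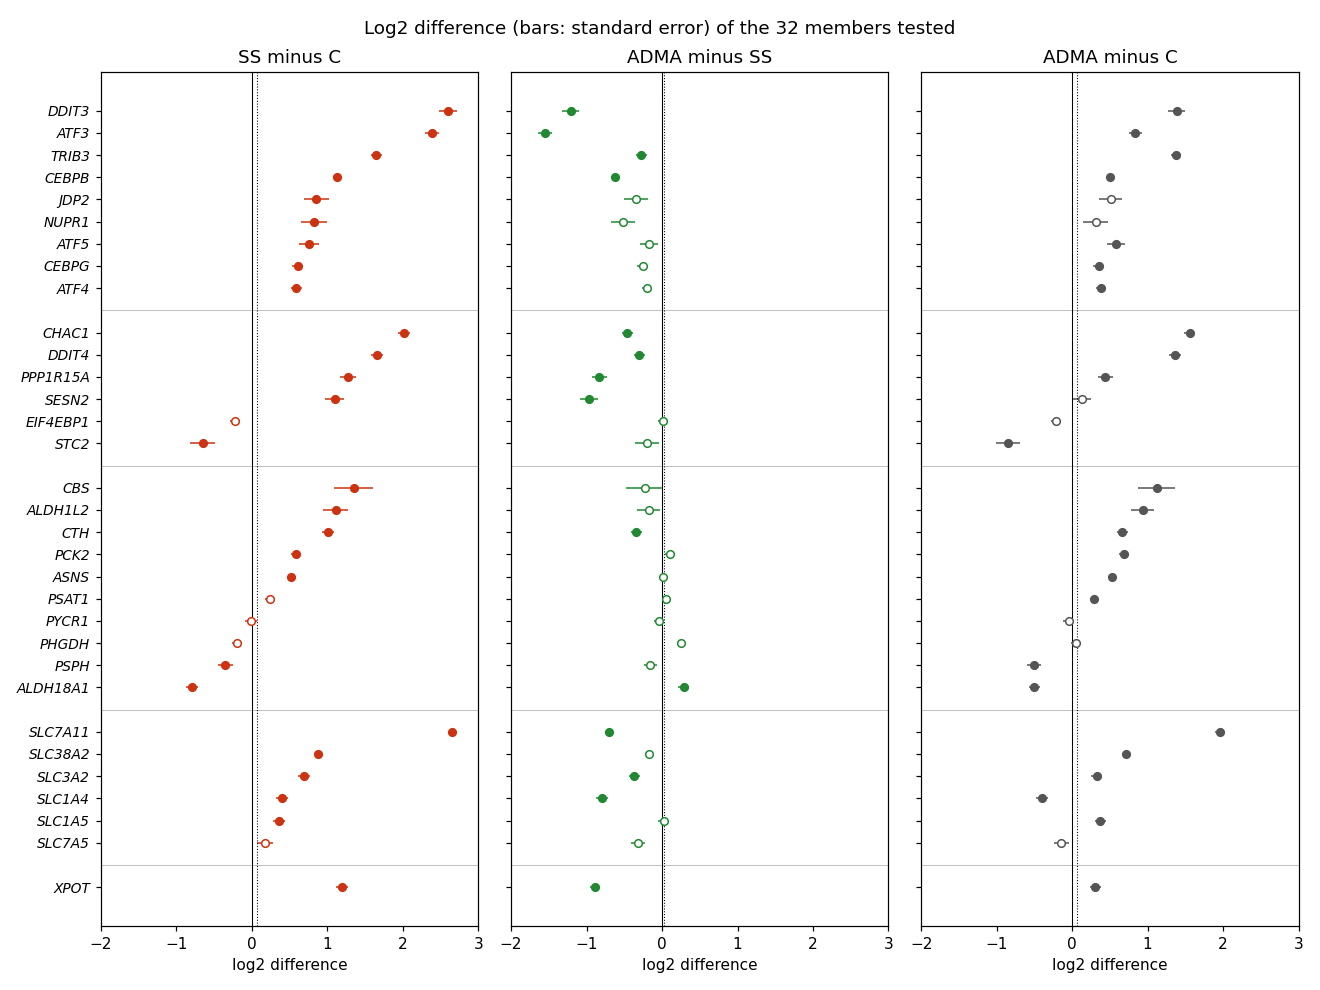
Log2 difference of each of the 32 tested members (rows, grouped by role and ordered by SS minus C) in the 3 comparisons; bars are standard errors, filled points are called, open points are not, and the dotted line is the median of all genes tested. The 9 transcription factors and their regulators are all right of 0 in SS minus C and all left of 0 in ADMA minus SS, whereas the synthesis enzymes lie on both sides; centring the arrays moves all points left by 0.39, 0.12 and 0.51.

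Among the 9 transcription factors and their regulators, all rose in SS against C, with a median log2 difference of 0.85. In ADMA against SS 4 fell and 5 were not called (median -0.34), and in ADMA against C 7 were higher and 2 were not called (median 0.51). With centred arrays 4 of the 9 rose in SS, none fell, and the ADMA minus C median was 0.00. The median of all genes was -0.44 there, so the regulators' median stayed 0.44 above it. Without centring, the shares called were 100%, 44.4% and 77.8% in the 3 comparisons. Of all genes tested, 57.6%, 29.5% and 49.8% were called.

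ATF4, the regulator after which the response is named, had log2 signals of 13.75, 13.63 and 13.46 on the C arrays, 14.12, 14.16 and 14.31 on the SS arrays and 13.95, 13.97, 13.99 and 14.08 on the ADMA arrays. Every SS array lay above every ADMA array, and every ADMA array above every C array. The rise in SS was 0.59 ± 0.07 (SE; 1.5-fold, adjusted p = 4.65e-06, limma). ADMA minus SS was -0.20 ± 0.07 (SE; adjusted p = 0.0273, limma) and was not called, but it was with quantile normalization (-0.38, adjusted p = 0.000176) and with centred arrays (-0.32, adjusted p = 0.00785). In ADMA against C it was higher by 0.39 ± 0.07 (adjusted p = 0.000184). With centred arrays the rise in SS was 0.20 and not called (adjusted p = 0.075), and the ADMA minus C difference turned to -0.12.

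DDIT3 encodes CHOP, a partner of ATF4 that promotes cell death under lasting stress. Its log2 signals were 8.65, 8.82 and 8.71 in C, 11.42, 11.28 and 11.27 in SS and 10.08, 9.79, 10.25 and 10.33 in ADMA. The 3 groups were wide apart and did not overlap. DDIT3 rose by 2.60 ± 0.12 (SE) in SS (adjusted p = 1.05e-10, limma). With ADMA it was lower than in SS, at -1.21 ± 0.11 (adjusted p = 1.02e-06), and still 1.39 ± 0.11 above control (adjusted p = 6.36e-08).

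ATF3 is a stress-induced transcription factor of the same family that often represses its targets. Signals of 10.14, 9.97 and 10.23 in C were followed by 12.41, 12.61 and 12.48 in SS and 10.94, 11.15, 10.92 and 10.79 in ADMA. The rise in SS was 2.39 ± 0.09 (SE; adjusted p = 2.55e-11, limma). The ADMA minus SS difference of -1.55 ± 0.09 (adjusted p = 1.41e-08) was the largest fall of any member, and ATF3 remained 0.84 ± 0.09 above control (adjusted p = 1e-06). Its groups did not overlap either. Of its other probe sets, 1 also fell (-1.59) and a dim one did not pass (-0.61, adjusted p = 0.223).

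CEBPB and CEBPG belong to the C/EBP family, whose members pair with ATF4. CEBPB measured 11.92, 11.88 and 11.95 in C, 13.11, 12.98 and 13.03 in SS and 12.42, 12.48, 12.42 and 12.36 in ADMA. These groups were tight, with standard deviations of at most 0.06, and did not overlap. CEBPB rose by 1.13 ± 0.06 (SE) in SS (adjusted p = 2.61e-10, limma) and was -0.62 ± 0.05 in ADMA minus SS (adjusted p = 5.16e-07). It was 0.51 ± 0.05 above control with ADMA, but 0.00 with centred arrays. CEBPG, whose promoter is shown above, averaged 11.00 ± 0.16 (SD, n = 3), 11.61 ± 0.03 (n = 3) and 11.35 ± 0.07 (n = 4). It rose in SS by 0.61 ± 0.08, while ADMA minus SS, -0.26 ± 0.07, missed the threshold at an adjusted p of 0.0101 (limma). Without ADMA replicate 1 that difference was -0.29 and passed (adjusted p = 0.00791). A second, about equally bright probe set of CEBPG was called lower in ADMA minus SS (-0.40, adjusted p = 0.000169), as was the mean of both (-0.33, adjusted p = 0.00034), whereas its ADMA minus C difference was under 1.2-fold (0.23).

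TRIB3, a pseudokinase that binds ATF4 and CHOP and restrains them, read 12.20, 12.41 and 12.31 in C, 13.82, 13.95 and 14.09 in SS and 13.60, 13.68, 13.66 and 13.79 in ADMA. It rose 3.13-fold in SS (log2 difference 1.65 ± 0.08, SE; adjusted p = 1.21e-10, limma). The ADMA arrays were below the SS arrays without overlap but by little, -0.27 ± 0.07 (adjusted p = 0.00627), and stayed 1.38 ± 0.07 above control. The small fall was not called when SS replicate 2 or 3 or ADMA replicate 1, 2 or 3 was left out, with differences of -0.27, -0.21, -0.24, -0.27 and -0.27, or in a fit with no intensity trend. A second probe set gave -0.30 and missed the threshold (adjusted p = 0.0108).

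The other regulators were ATF5, JDP2 and NUPR1. ATF5, a relative of ATF4, averaged 8.75 ± 0.25 in C, 9.51 ± 0.11 in SS and 9.33 ± 0.15 in ADMA (SD). It rose in SS, and its SS and ADMA arrays overlapped. A dim second probe set of ATF5 gave 1.34 in SS minus C and was not called (adjusted p = 0.0287). JDP2, which dimerizes with Jun proteins, averaged 9.69 ± 0.14, 10.54 ± 0.27 and 10.20 ± 0.33 and also rose in SS. Its ADMA minus SS difference of -0.34 ± 0.16 (SE) was not called, but without ADMA replicate 4 it was -0.49 and passed (adjusted p = 0.00811, limma), as it did with the replicate number as a block (-0.49, adjusted p = 0.00484). Its ADMA minus C difference of 0.51 ± 0.16 was not called either, and passed without ADMA replicate 3 (0.62, adjusted p = 0.00294) and, at an unaltered 0.51, without SS replicate 2 (adjusted p = 0.00693). NUPR1, a small stress-induced chromatin protein, averaged 7.43 ± 0.18, 8.25 ± 0.01 and 7.74 ± 0.24. Its rise in SS of 0.83 ± 0.17 was not called with quantile normalization (0.50, adjusted p = 0.0172) or with centred arrays (0.44, adjusted p = 0.0479). ADMA minus SS of NUPR1 was -0.52 ± 0.16 and was not called (adjusted p = 0.0191, limma). That difference was called with quantile normalization (-0.58, adjusted p = 0.00838) and with centred arrays (-0.63, adjusted p = 0.00764).

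**Figure D3:**
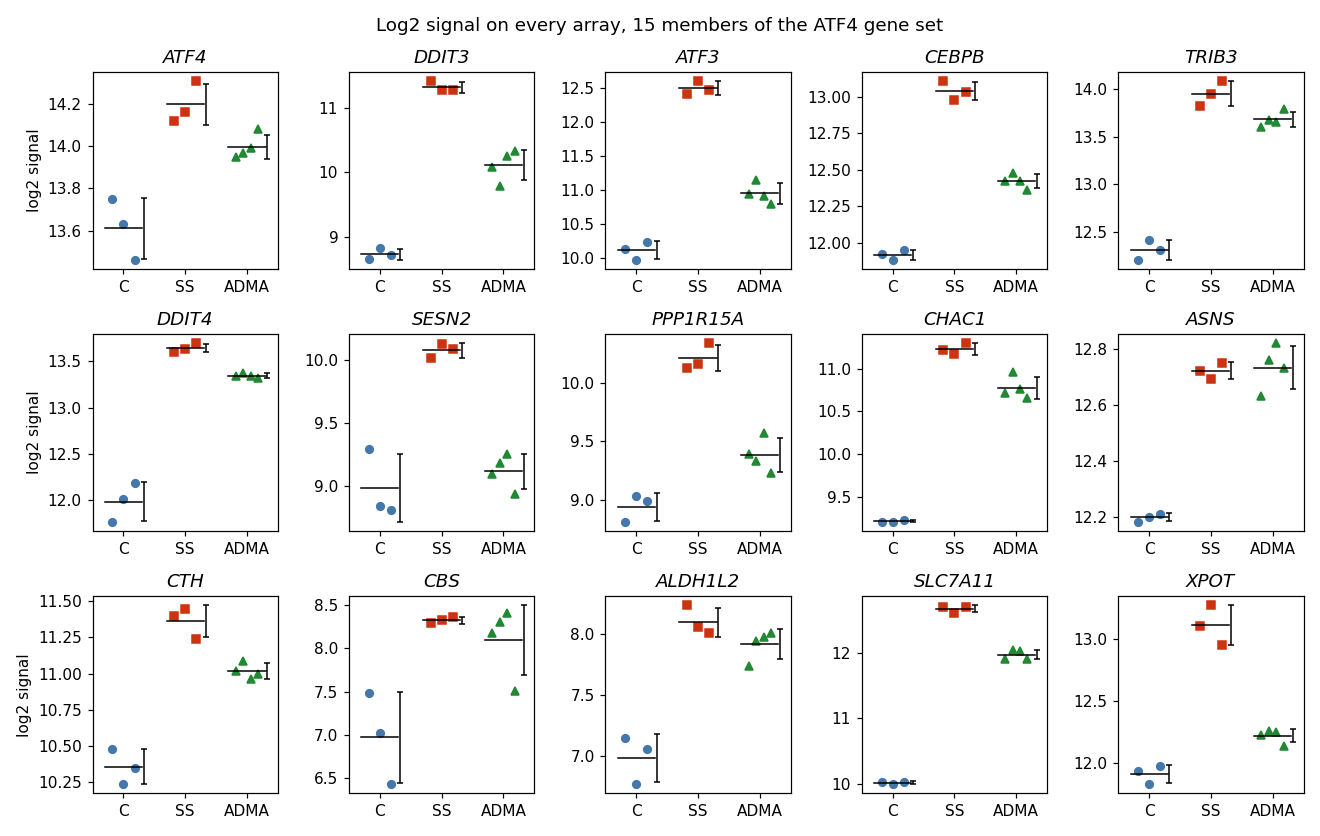
Log2 signal on every array (points) for 15 members, with the group mean (horizontal line) and standard deviation (bar) for C (3 arrays), SS (3) and ADMA (4); each panel has its own axis, which does not start at 0. For ATF4, DDIT3, ATF3, CEBPB, TRIB3, DDIT4, PPP1R15A, CHAC1, CTH, SLC7A11 and XPOT the ADMA arrays lie between the C and the SS arrays. For ASNS, CBS and ALDH1L2 the ADMA arrays overlap the SS arrays, and for SESN2 they overlap the C arrays.

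Among the 6 stress effectors and brakes on translation, 4 rose in SS, 1 fell and 1 was not called (median 1.18). In ADMA against SS 4 fell and 2 were not called (median -0.38). In ADMA against C 3 were higher and 1 was lower (median 0.28, but -0.22 with centred arrays). Under both choices that median was 0.22 above the median of all genes. Without centring, 83.3%, 66.7% and 66.7% were called in the 3 comparisons, against 57.6%, 29.5% and 49.8% of all genes tested.

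CHAC1 degrades glutathione, the main thiol of the cell, and is a known target of ATF4. Its log2 signals were 9.21, 9.21 and 9.23 in C, 11.22, 11.17 and 11.30 in SS and 10.71, 10.96, 10.76 and 10.66 in ADMA, with no overlap between groups. The rise of 2.01 ± 0.08 (SE) in SS had an adjusted p of 3.5e-11 (limma). CHAC1 was 1.37-fold lower with ADMA than in SS (-0.46 ± 0.08, adjusted p = 0.000237) and remained 1.56 ± 0.08 above control (adjusted p = 4.73e-10).

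DDIT4 and SESN2 both restrain mTORC1, the kinase complex that drives growth when amino acids are plentiful. DDIT4 gave 11.76, 12.01 and 12.18 in C, 13.60, 13.64 and 13.70 in SS and 13.34, 13.38, 13.34 and 13.32 in ADMA. It rose by 1.66 ± 0.08 (SE) in SS (adjusted p = 2.27e-10, limma) and was 1.36 ± 0.08 above control with ADMA. The ADMA minus SS difference of -0.30 ± 0.08 (adjusted p = 0.00514) was not called when any SS array or ADMA replicate 1, 3 or 4 was left out, with differences of -0.32, -0.31, -0.28, -0.30, -0.30 and -0.29, or in a fit with no intensity trend. SESN2, a sensor of leucine, gave 9.29, 8.84 and 8.81 in C, 10.02, 10.13 and 10.09 in SS and 9.09, 9.18, 9.25 and 8.93 in ADMA. Here the ADMA arrays overlapped the C arrays and lay below all SS arrays. SESN2 rose by 1.10 ± 0.13 in SS (adjusted p = 2.24e-06) and was -0.97 ± 0.12 in ADMA minus SS (adjusted p = 1.87e-05). A second probe set, nearly as bright, gave 0.83 in SS minus C, which was called, and -0.44 in ADMA minus SS, which was not (adjusted p = 0.0147). The ADMA minus C difference of the first was 0.13 ± 0.12 and not called (adjusted p = 0.355), and its sign turned with quantile normalization (-0.01) and centred arrays (-0.37).

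PPP1R15A encodes GADD34, which directs a phosphatase to eIF2 and so restarts protein synthesis. It measured 8.81, 9.03 and 8.99 in C, 10.13, 10.16 and 10.34 in SS and 9.39, 9.33, 9.57 and 9.23 in ADMA, and the groups did not overlap. The rise in SS was 1.27 ± 0.11 (SE; adjusted p = 6.74e-08, limma), and ADMA minus SS was -0.83 ± 0.10 (adjusted p = 1.44e-05). ADMA minus C was 0.44 ± 0.10 (adjusted p = 0.00145). That last difference was not called without C replicate 1 (0.37, adjusted p = 0.0103) or with quantile normalization (0.31), and was -0.07 with centred arrays. A second probe set gave 0.33 in ADMA minus C and was not called (adjusted p = 0.0282).

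EIF4EBP1, which holds back the cap-binding factor eIF4E, was not called in any comparison. Its means were 11.84 ± 0.05 in C, 11.61 ± 0.04 in SS and 11.62 ± 0.13 in ADMA (SD). With centred arrays it was called lower in SS (-0.61) and ADMA (-0.72) than in C. STC2, a secreted glycoprotein, went the other way from most members, with 9.02 ± 0.06 in C, 8.37 ± 0.18 in SS and 8.17 ± 0.31 in ADMA. Its fall in SS, -0.65 ± 0.17 (SE; adjusted p = 0.0031, limma), was not called without C replicate 2 (-0.62), C replicate 3 (-0.64) or SS replicate 2 (-0.55). A second probe set of STC2 gave -0.31 in SS minus C (adjusted p = 0.159) and -0.05 in ADMA minus C (adjusted p = 0.809), against -0.65 and -0.85 for the one used.

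The group named amino acid synthesis enzymes, 10 with a probe set, was divided. It also holds PCK2, which makes phosphoenolpyruvate, and ALDH1L2, an enzyme of folate metabolism, and both were among those that rose in SS. In SS against C 5 rose, 2 fell and 3 were not called (median 0.38, but -0.01 with centred arrays). In ADMA against SS 1 rose, 1 fell and 8 were not called (median -0.01). In ADMA against C 6 were higher and 2 lower (median 0.41, but -0.09 with centred arrays). Under both choices the medians were above those of all genes, by 0.31 in SS minus C and 0.34 in ADMA minus C. Without centring, 70%, 20% and 80% were called in the 3 comparisons, against 57.6%, 29.5% and 49.8% of all genes tested.

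ASNS, asparagine synthetase, is the best known target of the amino acid response. It had log2 signals of 12.18, 12.20 and 12.21 in C, 12.72, 12.69 and 12.75 in SS and 12.63, 12.76, 12.82 and 12.73 in ADMA. Both serum-free groups were above all C arrays and overlapped each other. ASNS rose by 0.52 ± 0.06 (SE) in SS (adjusted p = 1.05e-06, limma), and its ADMA minus SS difference was 0.01 ± 0.05 (adjusted p = 0.883). In ADMA against C it was higher by 0.53 ± 0.05 (adjusted p = 6.04e-07). With centred arrays neither was called, at 0.13 in SS (adjusted p = 0.251) and 0.03 in ADMA (adjusted p = 0.808) against C.

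CTH and CBS make cysteine from homocysteine by transsulfuration, CBS in the first step and CTH in the second. CTH read 10.48, 10.24 and 10.35 in C, 11.40, 11.45 and 11.24 in SS and 11.02, 11.09, 10.96 and 11.00 in ADMA, without overlap. It rose by 1.01 ± 0.08 (SE) in SS (adjusted p = 3.05e-08, limma). It was the 1 enzyme that fell with ADMA, at -0.34 ± 0.07 (adjusted p = 0.0017), a call that was lost without SS replicate 2 (-0.30, adjusted p = 0.0135). A second probe set of CTH gave -0.18 and was not called (adjusted p = 0.0865), and the mean of both, -0.26, was under 1.2-fold. ADMA minus C was 0.66 ± 0.07, or 0.16 and not called with centred arrays. CBS read 7.48, 7.02 and 6.43 in C, 8.29, 8.32 and 8.36 in SS and 8.17, 8.30, 8.40 and 7.51 in ADMA. The C arrays of CBS were widely spread, and ADMA replicate 4 was close to the highest of them. CBS rose by 1.35 ± 0.26 in SS (adjusted p = 0.000321), and ADMA minus SS, -0.23 ± 0.24, was not called (adjusted p = 0.482). CBS was higher with ADMA than in C by 1.12 ± 0.24 (adjusted p = 0.00102), a call lost with quantile normalization (0.72, adjusted p = 0.0185) and centred arrays (0.61, adjusted p = 0.0221). The genome holds a near-identical copy of CBS, CBSL, so its signal may come from either.

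ALDH1L2, a mitochondrial enzyme of folate metabolism, gave 7.15, 6.77 and 7.06 in C, 8.24, 8.06 and 8.01 in SS and 7.74, 7.95, 7.98 and 8.01 in ADMA. It rose by 1.11 ± 0.17 (SE) in SS (adjusted p = 3.14e-05, limma), and the SS and ADMA arrays overlapped. With ADMA it was 0.93 ± 0.16 above control (adjusted p = 0.00011), a call lost with centred arrays (0.43, adjusted p = 0.0375). PCK2, which makes phosphoenolpyruvate in mitochondria, averaged 10.66 ± 0.09 in C, 11.24 ± 0.08 in SS and 11.34 ± 0.07 in ADMA (SD). It rose by 0.58 ± 0.07 in SS and was 0.69 ± 0.07 above control with ADMA, but with centred arrays neither was called (0.19, adjusted p = 0.149, and 0.18, adjusted p = 0.15).

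The 3 enzymes of serine synthesis, PHGDH, PSAT1 and PSPH, act in that order. PHGDH averaged 12.58 ± 0.04, 12.38 ± 0.09 and 12.63 ± 0.09 in C, SS and ADMA (SD), and was not called in any comparison. Its ADMA minus SS difference of 0.25 ± 0.06 (SE) had an adjusted p of 0.00354 (limma) but a fold of 1.19, just under the limit of 1.2, and was called without SS replicate 3 (0.30), ADMA replicate 2 (0.27) or ADMA replicate 3 (0.28). With centred arrays PHGDH was called lower in SS (-0.59) and ADMA (-0.45) than in C. PSAT1 averaged 12.91 ± 0.05, 13.14 ± 0.09 and 13.20 ± 0.06. It was called higher in ADMA against C (0.29 ± 0.06), a call lost without ADMA replicate 1 (0.26), and its SS minus C difference of 0.24 ± 0.06 was under 1.2-fold, but was called without C replicate 1 (0.26) or SS replicate 3 (0.28) and with quantile normalization (0.42). A second probe set of PSAT1 was called higher in ADMA minus SS (0.29, adjusted p = 0.00919), against 0.05 ± 0.06 for the one used. PSPH averaged 10.97 ± 0.10, 10.62 ± 0.15 and 10.47 ± 0.15. Its fall in SS, -0.35 ± 0.10 (adjusted p = 0.00523), was lost without C replicate 1 (-0.32) or 3 (-0.33) or SS replicate 1 (-0.35) or 3 (-0.28). A second, nearly as bright probe set of PSPH was also called lower in SS (-0.44, adjusted p = 0.000935, limma), and a dim one was not called (0.10). The ADMA minus C difference of PSPH, -0.51 ± 0.09, was not called in its other probe sets (-0.21 and 0.09). Another probe set of PSPH differed from the one used in the sign of ADMA minus SS (0.22 against -0.15), neither being called.

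ALDH18A1 and PYCR1 act at the start and the end of proline synthesis. ALDH18A1 averaged 12.14 ± 0.15 in C, 11.35 ± 0.09 in SS and 11.64 ± 0.08 in ADMA (SD), and its groups did not overlap. It fell by 0.79 ± 0.08 (SE) on the log2 scale in SS (adjusted p = 4.22e-07, limma). The rise with ADMA against SS, 0.29 ± 0.07 (adjusted p = 0.00549), was lost without SS replicate 1 (0.26) or 2 (0.27) or ADMA replicate 3 (0.29) or 4 (0.25), and with centred arrays (0.17), no intensity trend (0.29), the mean of its probe sets (0.18), another probe set (0.07) or the replicate number as a block (0.25). PYCR1 was not called in any comparison, with means of 11.08 ± 0.03, 11.07 ± 0.05 and 11.04 ± 0.14, but with centred arrays it was called lower in SS (-0.40) and ADMA (-0.55) than in C.

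Of the 6 amino acid transporters tested, 5 rose in SS and 1 was not called (median 0.54). In ADMA against SS 3 fell and 3 were not called (median -0.34). In ADMA against C 4 were higher and 1 lower (median 0.35, but -0.16 with centred arrays). Under both choices that median was 0.28 above the median of all genes. Without centring, 83.3%, 50% and 83.3% were called in the 3 comparisons, against 57.6%, 29.5% and 49.8% of all genes tested.

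SLC7A11 is the light chain of the cystine and glutamate exchanger, which brings in cystine for glutathione synthesis. Its log2 signals were 10.03, 9.99 and 10.03 in C, 12.70, 12.61 and 12.70 in SS and 11.91, 12.04, 12.02 and 11.90 in ADMA. The standard deviation within a group was at most 0.07, far less than the distance between groups. SLC7A11 rose by 2.66 ± 0.06 (SE) in SS (adjusted p = 2.24e-13, limma), the largest difference of any member. It was lower with ADMA, at -0.70 ± 0.06 (adjusted p = 3.42e-07), and still 1.95 ± 0.06 above control (adjusted p = 2.59e-12). Both other probe sets of SLC7A11 over the limit were called higher in SS and ADMA than in C, but neither was called in ADMA minus SS (-0.51, adjusted p = 0.0591, and -0.17, adjusted p = 0.332).

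SLC3A2 is the heavy chain that carries SLC7A11 and SLC7A5 to the membrane. It averaged 10.79 ± 0.06 in C, 11.48 ± 0.17 in SS and 11.11 ± 0.05 in ADMA (SD). It rose by 0.69 ± 0.08 (SE) in SS (adjusted p = 2.67e-06, limma) and fell with ADMA against SS, at -0.37 ± 0.08 (adjusted p = 0.00139). Its ADMA minus C difference of 0.32 ± 0.08 was not called without C replicate 3 (0.29, adjusted p = 0.0119) and was -0.18 with centred arrays. SLC7A5, the leucine transporter LAT1, averaged 11.44 ± 0.08, 11.62 ± 0.15 and 11.30 ± 0.19 and was not called in any comparison. Its ADMA minus SS difference of -0.32 ± 0.10 (adjusted p = 0.0144) passed without SS replicate 1 (-0.40) or ADMA replicate 3 (-0.40) and with centred arrays (-0.43), where ADMA minus C (-0.65) passed too.

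SLC1A4 and SLC1A5 exchange small neutral amino acids, and SLC38A2 takes them up with sodium. SLC1A4 averaged 10.07 ± 0.09 in C, 10.47 ± 0.09 in SS and 9.67 ± 0.09 in ADMA (SD). It was higher than control in SS (0.40 ± 0.08, SE; adjusted p = 0.000704, limma) and lower than control with ADMA (-0.39 ± 0.08, adjusted p = 0.000536), and ADMA minus SS was -0.79 ± 0.08 (adjusted p = 2.52e-06). Of its 5 probe sets, 3 were called lower in ADMA minus SS and 1 dim probe set gave 0.13, which was not called. In ADMA minus C none of the other 4 was called (-0.13, -0.31, -0.60 and 0.82), nor was the mean of all 5 (-0.12, adjusted p = 0.266). SLC1A5 averaged 10.72 ± 0.14, 11.08 ± 0.06 and 11.10 ± 0.09. It rose in SS by 0.35 ± 0.08, which turned to -0.04 with centred arrays, and its ADMA arrays overlapped the SS arrays. SLC38A2 averaged 12.96 ± 0.01, 13.84 ± 0.06 and 13.67 ± 0.06. It rose by 0.88 ± 0.05 in SS, and its ADMA minus SS difference of -0.17 ± 0.05 was called with quantile normalization (-0.30, adjusted p = 1.49e-05, limma).

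XPOT exports tRNAs from the nucleus. It read 11.94, 11.83 and 11.98 in C, 13.10, 13.27 and 12.95 in SS and 12.23, 12.26, 12.25 and 12.14 in ADMA, with no overlap. XPOT rose by 1.19 ± 0.08 (SE) in SS (adjusted p = 3.08e-09, limma) and was -0.89 ± 0.07 in ADMA minus SS (adjusted p = 2.97e-07). A second, dimmer probe set of XPOT gave 0.48 in SS minus C, which was called, and -0.23 in ADMA minus SS, which was not (adjusted p = 0.0365). The ADMA minus C difference of 0.31 ± 0.07 was not called without C replicate 2 (0.26, adjusted p = 0.0119) and was -0.20 with centred arrays.

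The members' calls were also set beside 6 lists of other genes of the same pathway. These lists were chosen with earlier results of these data known, so they are not independent of the members' results. The list of other reported targets is not complete, as reported targets are also in other lists, such as the synthetases below. Among 16 tested of 18 other reported targets of ATF4, 13 rose in SS, 3 fell and none was left uncalled, with a median log2 difference of 1.29. Of all genes tested, 30.3% rose and 27.3% fell, with a median of 0.07. VEGFA, the vascular growth factor, rose by 2.67 ± 0.08 (SE; adjusted p = 1.26e-12, limma) and CREBRF, a regulator of CREB3 proteins, by 2.54 ± 0.13 (adjusted p = 4.89e-10). The 3 that fell were SLC25A33 (-0.65), LONP1 (-0.60) and HSPA9 (-0.33), which act in mitochondria and are named after their values were seen. With ADMA against SS 12 of the 16 fell, none rose, and the median was -0.59, where 13.8% of all genes fell and 15.7% rose. WIPI1, an autophagy protein, had the largest fall, -1.26 ± 0.08 (adjusted p = 3.89e-08). In ADMA against C 8 were higher and 3 lower (median 0.34, or -0.17 with centred arrays, and 0.27 above that of all genes under both). Of all genes tested, 26.6% were higher and 23.2% lower there.

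Upstream of ATF4, of 15 genes for the eIF2 kinases, the GCN2 regulators GCN1 and IMPACT, eIF2, its exchange factor and phosphatase, 3 rose in SS and 5 fell (median 0.03, against 0.07 over all genes). The share called, 53.3%, was near the 57.6% of all genes. With centred arrays the median was -0.36, where that of all genes was -0.32. EIF2AK3, which encodes PERK, rose by 1.10 ± 0.11 (SE; adjusted p = 3.13e-07, limma) and with ADMA was -1.17 ± 0.10 against SS (adjusted p = 5.53e-07). Its ADMA minus C difference was -0.07 ± 0.10 and not called. EIF2AK4, which encodes GCN2 and was chosen after its values were seen, was not called in SS (0.10 ± 0.08) and was lower with ADMA than in SS (-0.45 ± 0.07, adjusted p = 0.000208). EIF2B3, a subunit of the exchange factor, fell by 1.39 ± 0.10 on the log2 scale in SS (adjusted p = 1.98e-08).

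Cytosolic aminoacyl-tRNA synthetases, which charge tRNAs and include reported ATF4 targets, were split. Of 17 tested, 4 rose in SS and 7 fell (median -0.06), 64.7% called against 57.6% of all genes. The counts were 7 and 6 with quantile normalization (median 0.08) and 3 and 10 with centred arrays (median -0.45). The median of all genes was -0.05 with quantile normalization and -0.32 with centred arrays. With centred arrays 23.1% of the called synthetases were higher, against 28% of all called genes. The 4 that rose were AARS1 (1.03), WARS1 (0.80), CARS1 (0.79) and SARS1 (0.51), named after their values were seen. VARS1 (-1.76 ± 0.11, SE) and FARSB (-1.27 ± 0.08) had the largest falls. In ADMA against SS 2 rose, VARS1 (0.73 ± 0.10, adjusted p = 5.09e-05, limma) and FARSB (0.43), and AARS1 fell (-0.28). Thus 17.6% were called there, against 29.5% of all genes tested.

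Among 18 other amino acid transporters 5 rose and 5 fell in SS (median 0.16, against 0.07 over all genes). The share called, 55.6%, was near the 57.6% of all genes. With centred arrays the median was -0.23, where that of all genes was -0.32. SLC16A10, a carrier of aromatic amino acids, was -1.82 ± 0.17 (SE) and SLC7A2, a carrier of arginine and lysine, -1.63 ± 0.19. SLC7A2 was higher with ADMA than in SS, by 1.196 ± 0.173 (adjusted p = 7.44e-05, limma). Of 9 serine, glycine and one-carbon enzymes, 6 fell in SS and 2 rose (88.9% called, median -0.59). GCSH of the glycine cleavage system fell by 1.45 ± 0.06 on the log2 scale, whereas AMT of the same system rose by 2.38 ± 0.15 and was lower with ADMA than in SS (-0.62 ± 0.14, adjusted p = 0.00261). Of 11 enzymes of glutamine, glutamate, aspartate and arginine metabolism, 6 fell in SS and 2 rose (72.7% called, median -0.35). ASS1, which makes argininosuccinate, fell by 1.14 ± 0.07 and PRODH, which breaks down proline, rose by 1.47 ± 0.19. ARG2, the mitochondrial arginase, was lower with ADMA than in SS (-0.72 ± 0.08, adjusted p = 4.67e-06, limma). In that comparison 5 of the 11 rose and 3 fell, 72.7% called against 29.5% of all genes. With centred arrays 1 rose and 3 fell (25% of those called were higher, against 30.1% of all called genes).

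**Figure D4:**
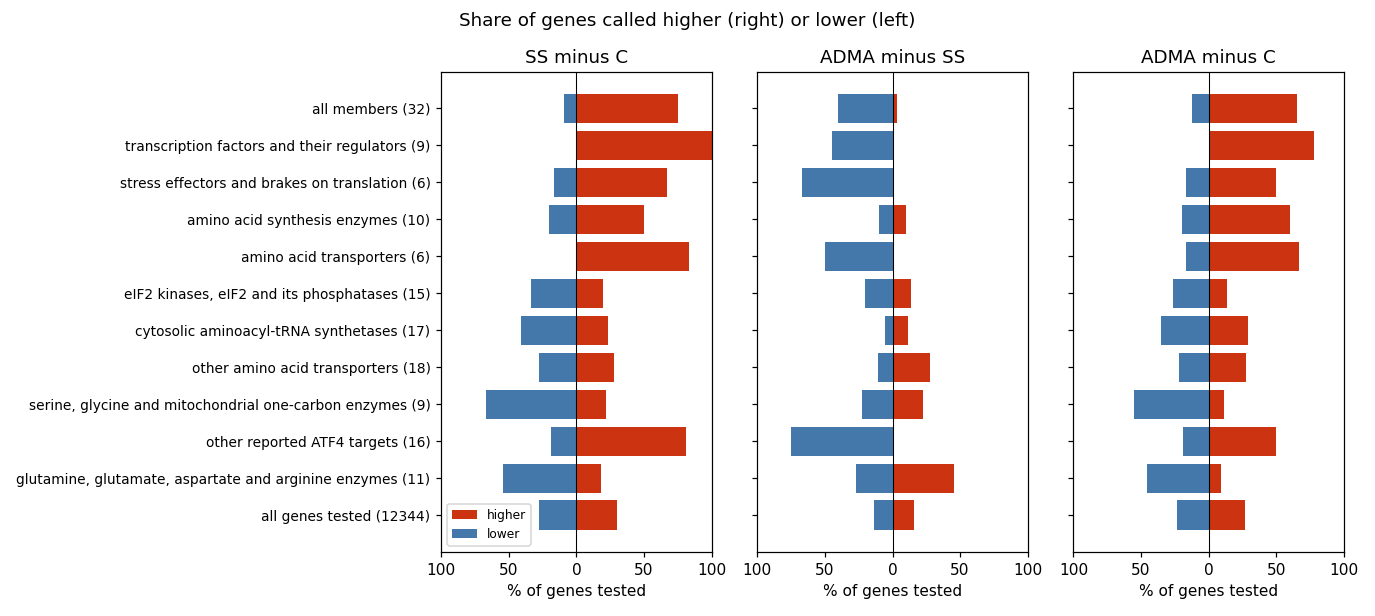
Percent of the genes tested that were called higher (red, to the right) or lower (blue, to the left) in each comparison, for the members, their roles, 6 other pathway lists and all 12344 genes tested; the number of genes tested is in brackets. In SS minus C the members (24 of 32) and other reported targets (13 of 16) are mostly higher, while the synthetases, one-carbon enzymes and glutamine to arginine enzymes have more lower than higher; with quantile normalization the synthetases had 7 higher and 6 lower.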

How the data were processed

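Messenger RNA levels in LoVo cells come from 10 HG-U133 Plus 2.0 arrays of Affymetrix, which the sample labels divide into 3 C, 3 SS and 4 ADMA arrays. The deposited intensity values are MAS 5.0 signals on a linear scale, 1 per probe set, which the authors scaled to an equal trimmed mean (500.06 to 500.07). For their own analysis the authors kept probe sets present in most samples of each group and filtered them in R. The deposited table was used here without that filter. The genome build is not given in the sources used here. The labels call the replicates biological without saying how they were grown, and p-values measure the spread between them. The number of arrays limits the precision. No 2 arrays were identical.

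From these values log2 signals were computed with no pseudocount. The array holds 54675 probe sets: 62 controls, 41091 annotated with a single symbol, 1801 with several symbols and 11721 without any. Each of 19775 genes was read from its probe set with the highest mean. Genes whose mean reached the 50th percentile (log2 6.25) were tested, 12344 in all. One limma 3.58.1 model (R 4.3.3; lmFit, then eBayes allowing the variance to follow signal intensity) held all 10 arrays, and Benjamini-Hochberg adjustment ran over all genes tested. The thresholds, adjusted p under 0.01 and a 1.2-fold change, are those of the study's SAM analysis, which was not run. The background level was the 95th percentile of 27 Bacillus control probe sets. Log2 signals on every array are given for ATF4, DDIT3, ASNS and each member called with a log2 difference of at least 1 in any comparison, 15 in all. From each pathway list the 2 largest called differences in SS minus C and the 1 largest in ADMA minus SS are named. The members, lists and tests were chosen with earlier results of these data known. The alternatives were quantile normalization, median centring, other filters, a pseudocount of 16, no trend, array weights, 2-group fits, other probe sets, a background floor, a replicate block, a looser threshold and leaving out each array. The fit was tested on simulated data.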

Additional observations from a re-analysis of the deposited data

Results flagged for a closer look

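In groups of 4 arrays, the highest and lowest value of each of the 33 members with a probe set were set against the rest of the group. A value stood apart in 2 members, when its gap to the nearest array took up more of the group's range than Dixon's critical value, which chance passes in about 1 of 20 groups. EIF4EBP1 read 11.43 on ADMA replicate 2, below the nearest ADMA array at 11.67 (0.851 of the range). PSPH read 10.25 on ADMA replicate 4, below the nearest at 10.54 (0.96 of the range).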

How the results depend on the processing

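Of 1230 values of single members under the settings other than leaving out an array, 1130 kept their direction and their side of the threshold, 38 lost the call, 31 gained it and 31 turned sign. Of 960 values with 1 array left out, 909 kept both, 27 lost the call, 11 gained it and 13 turned sign. Centring arrays on their medians moved most. It gave 14 members higher and 6 lower in SS minus C (median 0.40), 0 higher in ADMA minus SS (median -0.38), and 6 higher and 8 lower in ADMA minus C (median -0.0946). These shifts follow from the unequal array medians. The medians of all genes tested moved too, to -0.32 in SS minus C, -0.09 in ADMA minus SS and -0.44 in ADMA minus C. Centring turned PSAT1 (-0.15), SLC7A5 (-0.21) and SLC1A5 (-0.0352) in SS minus C, and EIF4EBP1 (-0.11), ASNS (-0.10), PSAT1 (-0.0634), PCK2 (-0.0137) and SLC1A5 (-0.10) in ADMA minus SS. In ADMA minus C it turned ATF4 (-0.12), CEBPG (-0.16), NUPR1 (-0.20), SESN2 (-0.37), PPP1R15A (-0.0684), PSAT1 (-0.22), PHGDH (-0.45), SLC3A2 (-0.18), SLC1A5 (-0.13) and XPOT (-0.20). Quantile normalization gave medians of 0.73 in SS minus C and -0.31 in ADMA minus SS. It turned PYCR1 (0.0312) in SS minus C, ASNS (-0.0547) and PSAT1 (-0.0572) in ADMA minus SS, and NUPR1 (-0.0794), SESN2 (-0.0088) and PYCR1 (0.0255) in ADMA minus C. Averaging all probe sets of a gene gave 1 member lower in SS minus C, 0 higher in ADMA minus SS (median -0.30) and 1 lower in ADMA minus C, and turned STC2 (0.0298), ASNS (-0.70, adjusted p = 0.0645, limma) and PSPH (0.0216) in ADMA minus SS. That mean includes a dim second probe set of ASNS. In a further setting, probe sets that may match several transcripts were left out where a gene had another, and 31 members were tested. ASNS, left with a dim probe set under the limit, was not among them. In that setting 0 were higher in ADMA minus SS and 2 lower in ADMA minus C. STC2 (0.26) and SLC1A4 (0.13) turned in ADMA minus SS, and SLC1A4 (0.82) in ADMA minus C. The filter at the 75th percentile gave a median of 0.72 in SS minus C. At an adjusted p under 0.05 with no fold limit 5 were lower in SS minus C and 2 higher in ADMA minus SS. ADMA minus SS had 0 members higher without the intensity trend and 2 with array weights. Where no other cause is given, the cause was not tested.

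Leaving out 1 array at a time gave, in SS minus C, 24 to 25 members higher, 1 to 3 lower and a median of 0.75 to 0.82. The count of 1 lower came without C replicate 3. In ADMA minus SS it gave 0 to 2 higher, 10 to 13 lower and a median of -0.31 to -0.24. None were higher without SS replicate 1 or 2 or ADMA replicate 4, and 2 without SS replicate 3 or ADMA replicate 2. In ADMA minus C it gave 20 to 22 higher, 4 lower and a median of 0.38 to 0.46. Signs turned in differences near 0: PYCR1 in SS minus C (-0.0295 to 0.0181), in ADMA minus SS EIF4EBP1 (-0.0186 to 0.0719), ASNS (-0.0161 to 0.0461), PYCR1 (-0.0934 to 0.0168) and SLC1A5 (-0.0186 to 0.053), and PYCR1 in ADMA minus C (-0.10 to 0.0087).

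Arrays with the same replicate number did not deviate together more than others. Their correlations were -0.074 to 0.102, against -0.114 to 0.139 for arrays with different numbers. The labels do not say whether the numbers pair the samples, and so few arrays cannot settle it. With the replicate block, which leaves ADMA replicate 4 without a partner, 24 members rose and 3 fell in SS minus C, 0 rose and 14 fell in ADMA minus SS, and 21 were higher and 4 lower in ADMA minus C. In ADMA minus SS the block turned EIF4EBP1 (-0.011), lost the call of ALDH18A1 (0.25) and gained that of JDP2 (-0.49). Signal over background limits SLC6A9 alone among the members with a probe set, which was under the background level on 1 C and 1 ADMA array.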
